A study of Mus musculus with 7 samples.

Results

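The complement system is a set of plasma and cell surface proteins that marks cells and microbes for removal, and its genes are also transcribed outside the liver, in fibroblasts among other cells. In the classical pathway, C1q recognises a target and carries a tetramer of the serine proteases C1r and C1s, in which C1r activates C1s and C1s cleaves C4 and C2. In the lectin pathway, MASP-1 is a protease with a comparable place, and both routes lead to C3. Serping1 (C1 inhibitor) blocks C1r, C1s and the MASP proteases, CD55 speeds the decay of the C3 convertases on the cell surface, and CD59 blocks the membrane attack complex.

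The 8 complement genes C1s1, C1ra, C3, C4b, Serping1, Cd55, Cd59a and Masp1 were looked up by symbol in the RPKM table, which has 11642 rows. C1s1 was selected on its RPKM in the si-SMaRT and si-SCR samples, as one of the largest rises upon lnc-SMaRT depletion, so its difference between the groups and those of the other 7 are given as a description. No p-value is given for any of the 8, and counts of these genes past a threshold, or not overlapping between the groups, are printed without anything being read from them. A row was found for 5 of the 8 genes (C1s1, C1ra, Masp1, Cd55 and Cd59a). C3, C4b and Serping1 had no row in the table used here and were not analysed here.

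The data came from C2C12 cells, an established line of mouse myoblasts, collected on day 2 of differentiation. The si-SCR group is 2 samples that received a scramble siRNA at 30 nM, and the si-SMaRT group is 2 that received siRNA #1, directed at the muscle long noncoding RNA lnc-SMaRT, at the same dose. Their total RNA was sequenced. A pull-down with set #1 of the lnc-SMaRT probes, one with LacZ probes and an input sample add 1 library each. A single siRNA sequence was used in the depletion libraries, and all samples came from 1 cell line. The samples of a group came from separate populations of that line. The p-values measure the spread between the libraries of a group, in which differences of populations and of library preparation cannot be told apart.

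The effective library sizes ranged from 11291255 to 14312935 reads. The si-SCR and si-SMaRT libraries were sequenced as read pairs, and those of the pull-down experiment as single reads. In the paper, the rRNA and tRNA filter removed a far larger part of the pairs of si-SMaRT 1 than of the other RNA-Seq libraries. Lnc-SMaRT itself was at 19.1 and 15.9 RPKM (reads per kilobase of gene, scaled to library size) in si-SCR 1 and 2 and at 2.88 and 3.65 RPKM in si-SMaRT 1 and 2. In si-SMaRT 2 minus si-SMaRT 1, the log2 difference of a gene followed its GC content across 10381 genes (Spearman's rho = -0.845, a description over genes that share the 2 libraries). The same quantity between the si-SCR samples had rho = 0.354. Values with the GC trend of each sample removed are therefore given where they alter a count. All 12 muscle markers had a row, and 10 were lower in both si-SMaRT samples than in both si-SCR samples. The share of all tested genes lower in this way was 20.4%. The summed level of the 12 was 12260 and 12660 RPKM in si-SCR and 8643 and 5819 RPKM in si-SMaRT. None of the 12 had an adjusted p below 0.05 in limma. With the GC trend removed 4 did (Mef2c, Ckm, Tnnt1 and Tnnc2), as did 4.79% of 10381 genes.

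C1s1 encodes C1s, the protease that cleaves C4 and C2. It lies at chr6:124530345-124542359 on the minus strand (GRCm38, GENCODE M21). An antisense gene, Gm16567, at chr6:124530911-124542310 on the plus strand, covers much of its span, with exons of 576 bases. The upstream region of C1s1 is shown because C1s1 had the largest difference of the 5 genes. The 250 bases before its start site, chr6:124542360-124542609, minus strand, are given 5′ to 3′ from RefSeq (GRCm38.p6), with matches to the motifs searched in capitals.
C1s1: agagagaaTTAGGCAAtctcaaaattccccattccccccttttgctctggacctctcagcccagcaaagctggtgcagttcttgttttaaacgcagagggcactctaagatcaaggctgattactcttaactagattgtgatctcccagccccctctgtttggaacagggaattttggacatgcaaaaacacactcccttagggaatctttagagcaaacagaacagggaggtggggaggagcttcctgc

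C1ra encodes C1r, the protease that activates C1s, and lies on the opposite strand of the same chromosome at chr6:124512405-124523443. In RefSeq its start site falls inside the gene model of GENCODE M21, and 30 bases after it, chr6:124512633-124512662, plus strand, carried both of its motif matches.
C1ra: ctgtTTATGCAAatgcttcaTTCCCTGAAa

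Cd55 is the gene of the convertase regulator CD55 and lies at chr1:130439027-130462744 on the minus strand. Its 250 upstream bases, chr1:130462745-130462994, minus strand, are shown for contrast, as it was the only 1 of the 5 genes that was lower in both si-SMaRT samples than in both si-SCR samples.
Cd55: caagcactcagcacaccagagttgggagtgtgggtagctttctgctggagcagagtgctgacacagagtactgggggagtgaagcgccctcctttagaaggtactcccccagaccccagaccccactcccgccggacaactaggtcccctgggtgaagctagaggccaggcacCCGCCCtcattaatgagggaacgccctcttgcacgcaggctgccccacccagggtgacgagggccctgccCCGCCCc

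Windows of 300 bases (250 before the start site and 50 after it) were searched on both strands for 8 motifs, in C1s1, C1ra, Cd55 and Cd59a and in all 32851 windows of the RefSeq table. The table used here holds no window for Masp1. The C1s1 window held 1 motif, the C/EBP motif TTGCNNAA, starting 242 bases before the start site, and this motif is in 10.8% of all windows. A further C1s1 start site in RefSeq, slightly downstream, has a window that held none of the 8. The C1ra window held TTGCNNAA, starting at base 17 after the start site, and the STAT motif TTCNNNGAA, starting at base 33, which is in 8.30% of all windows. The Cd59a window held the ISRE core GAAANNGAA, found in 8.56% of windows, 187 bases before the start site. The Cd55 window held GGGCGG (Sp1) at 2 places, 77 and 7 bases before the start site, and CAGCTG, the E-box bound by MyoD, at base 5 after it. GGGCGG is in 35.7% of all windows and CAGCTG in 16.3%. The motifs CACGTG (7.15% of windows), GGGNNTTTC (NF-kB, 4.36%) and TATAAA (13.6%) were in none of these windows. The C1s1 window held 1 CpG, the C1ra window 5, the Cd59a window 1 and the Cd55 window 12, where the median of all windows is 7. These matches describe the letters of the windows and not bound sites.

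C1s1 had the largest difference of the 5 genes. Its level was 0.581 RPKM in si-SCR 1 and 0.520 RPKM in si-SCR 2, against 3.0 RPKM in si-SMaRT 1 and 2.39 RPKM in si-SMaRT 2. Both si-SMaRT samples were thus above both si-SCR samples, and the ratio of the group means (2.69 ± 0.432 over 0.551 ± 0.0430 RPKM, SD, n = 2 each) was 4.90. The log2 difference of RPKM + 0.1 was 2.10 (SE 0.32), and of 11086 tested genes 2 had a larger one. In si-SCR the gene was near the lower end of the table, with 5.97% of rows below its mean, and in si-SMaRT 26.3% of rows were below it.

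The reads behind these values were few. They were worked out from the RPKM steps as 23 and 23 reads in si-SCR and 106 and 107 reads in si-SMaRT. For 23 reads the exact Poisson interval at 95% is 14.6 to 34.5 reads, and for 106 reads it is 86.8 to 128.0 reads. These intervals cover counting error only. The libraries were stranded and were aligned as such, but the strand setting of the counting is not given in the sources used here. If reads were counted without strand, any in exons shared with the antisense gene Gm16567 could not be assigned to either gene by strand. Whether such reads would have been added to the C1s1 count or left out of it is unknown. C1s2, a near-identical copy of C1s1, had no row.

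C1ra showed a smaller difference in the same direction. Its level was 2.44 and 2.16 RPKM in si-SCR 1 and 2 and 4.15 and 3.25 RPKM in si-SMaRT 1 and 2. The samples of the groups did not overlap. The ratio of the means was 1.61 and the log2 difference 0.66 (SE 0.30), with at least 84 reads in each sample. C1rb, a near-identical copy of C1ra, had no row, and how its reads would have been split is unknown.

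The products of C1ra and C1s1 act in one complex, so the ratio of their levels is given for each sample. Per length, C1ra was 4.20 and 4.15 times as high as C1s1 in si-SCR 1 and 2, and 1.38 and 1.36 times as high in si-SMaRT 1 and 2. The mean ratio was 4.18 ± 0.0350 (SD, n = 2) with the scramble siRNA and 1.37 ± 0.0167 (SD, n = 2) with the depletion. Within each group both genes were lower in replicate 2 than in replicate 1, by 0.13 (C1s1) and 0.17 (C1ra) on the log2 scale in si-SCR and by 0.32 and 0.34 in si-SMaRT on log2(RPKM + 0.1). With the GC trend removed, si-SMaRT 2 was lower than si-SMaRT 1 by 0.48 (C1s1) and 0.23 (C1ra), so the likeness of the ratio between those samples depends on the processing. With 23 reads of C1s1 per si-SCR sample, counting error on the ratio is wider than its SD. As C1s1 was selected for its rise, the ratio is a description that restates this rise against C1ra.

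**Figure D1:**
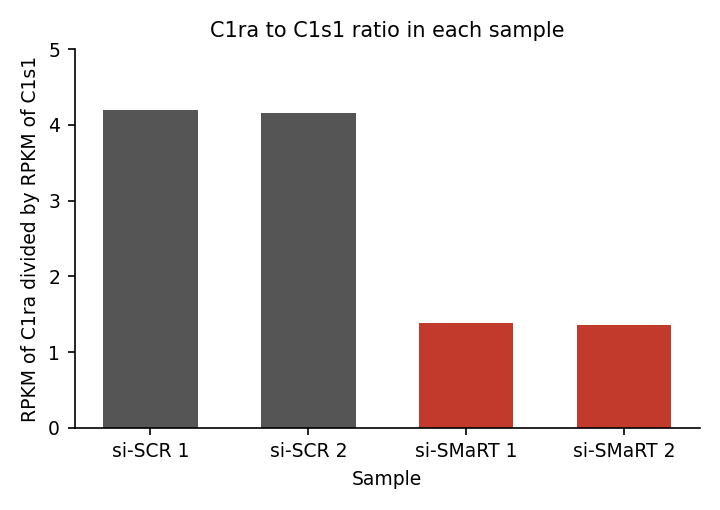
The y axis is the RPKM of C1ra divided by that of C1s1 (no unit) and each bar is 1 sample, grey for si-SCR and red for si-SMaRT. The bars stand at 4.20 and 4.15 in si-SCR and at 1.38 and 1.36 in si-SMaRT.

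Masp1 encodes MASP-1 and, by alternative splicing, further products that a count per gene does not separate. It lies at chr16:23449417-23520815 on the minus strand. It was at 0.546 and 0.823 RPKM in si-SCR 1 and 2 and at 1.93 and 1.45 RPKM in si-SMaRT 1 and 2. Both si-SMaRT samples were above both si-SCR samples, with a ratio of the means of 2.47 and a log2 difference of 1.2 (SE 0.34). Its reads were at least 19 and 32 in si-SCR and at least 60 and 57 in si-SMaRT, and 42 of the tested genes had a larger log2 difference.

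Cd55 and Cd59a encode the membrane regulators. Cd55 was at 0.961 and 0.583 RPKM in si-SCR 1 and 2 and at 0.420 and 0.461 RPKM in si-SMaRT 1 and 2, a log2 difference of -0.66 (SE 0.36), which was -0.34 without si-SCR 1 and -0.97 without si-SCR 2. The si-SMaRT samples were both below the si-SCR samples, but si-SCR 2 was nearer to them than to si-SCR 1. The reads were 59 and 40 in si-SCR and 23 and 32 in si-SMaRT, and the exact Poisson intervals of si-SCR 2 (28.6 to 54.5 reads) and si-SMaRT 2 (21.9 to 45.2 reads) overlap. Cd55 passed the minimum mean of 0.5 RPKM through its si-SCR samples, since its si-SMaRT mean was 0.440 RPKM.

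Cd59a, which lies at chr2:104095801-104115354 on the plus strand, was the most abundant of the 5 genes. Its level was 8.81 and 6.92 RPKM in si-SCR 1 and 2 and 7.43 and 10.5 RPKM in si-SMaRT 1 and 2. The groups overlapped, the si-SMaRT samples being the farther apart, and the log2 difference was 0.18 (SE 0.29). Without si-SMaRT 2 it was -0.07, so its sign rests on 1 library. Of genes within 1 percentage point of its GC content (44.5%), the median log2 difference of si-SMaRT 2 minus 1 was 0.36, against 0.49 for Cd59a. With the GC trend removed, Cd59a differed by 0.09 between the si-SMaRT samples.

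**Figure D2:**
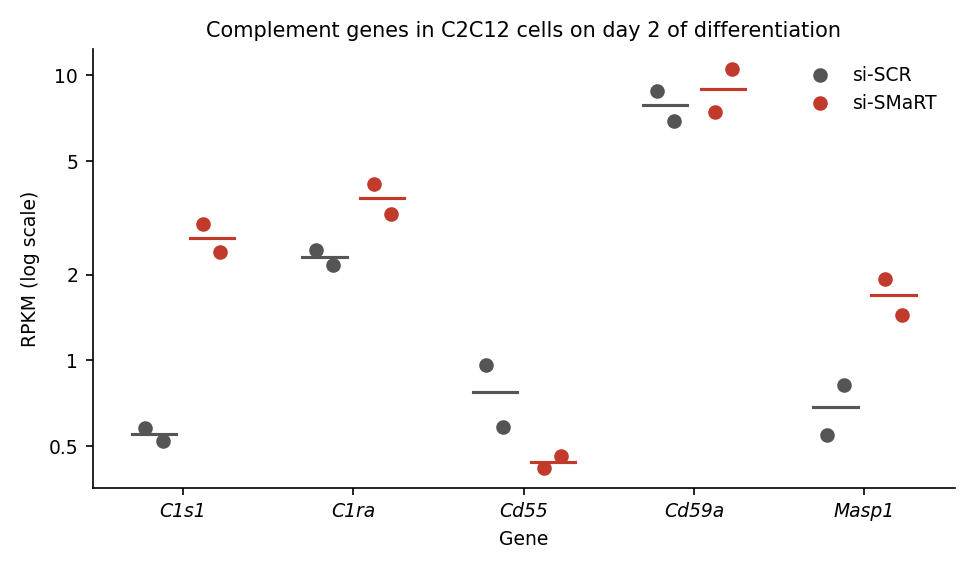
The y axis is RPKM on a log scale and the x axis the 5 genes, with 1 point per sample and a line at the mean of each group (grey, si-SCR; red, si-SMaRT). C1s1, C1ra and Masp1 have both red points above both grey points, Cd55 has both below, and the points of Cd59a overlap.

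Ordered by their level per length, the si-SCR samples gave Cd59a (mean 7.87 RPKM), C1ra (2.30), Cd55 (0.772), Masp1 (0.684) and C1s1 (0.551), and the ranges of Cd55 and Masp1 and of Masp1 and C1s1 overlapped. The si-SMaRT samples gave Cd59a (8.96), C1ra (3.70), C1s1 (2.69), Masp1 (1.69) and Cd55 (0.440), with no overlap between neighbours. C1s1 was last in si-SCR and had Masp1 and Cd55 below it in si-SMaRT. Cd59a was 9.18 and 11.9 times as high as Cd55 in si-SCR 1 and 2 and 17.7 and 22.8 times as high in si-SMaRT 1 and 2.

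In limma on log2(RPKM + 0.1), 56 of 11086 tested genes (0.505%) had an adjusted p below 0.05, and of the 5 complement genes this was C1s1, for which it had been chosen. The samples of the groups did not overlap in 4 of the 5 genes, among them C1s1, and in 40.7% of all tested genes. With the GC trend removed, Masp1 was past the threshold beside C1s1, as were 4.79% of 10381 genes. The number among the 5 was 0 without si-SCR 1 and 0 without si-SCR 2, where 0.216% and 0.271% of all tested genes were past the threshold. It was 2 (C1s1 and Masp1) without si-SMaRT 1 and 3 (with C1ra as well) without si-SMaRT 2, where 26.2% and 8.49% were. The selection used the values of all 4 samples, so these counts are no support for a difference.

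**Figure D3:**
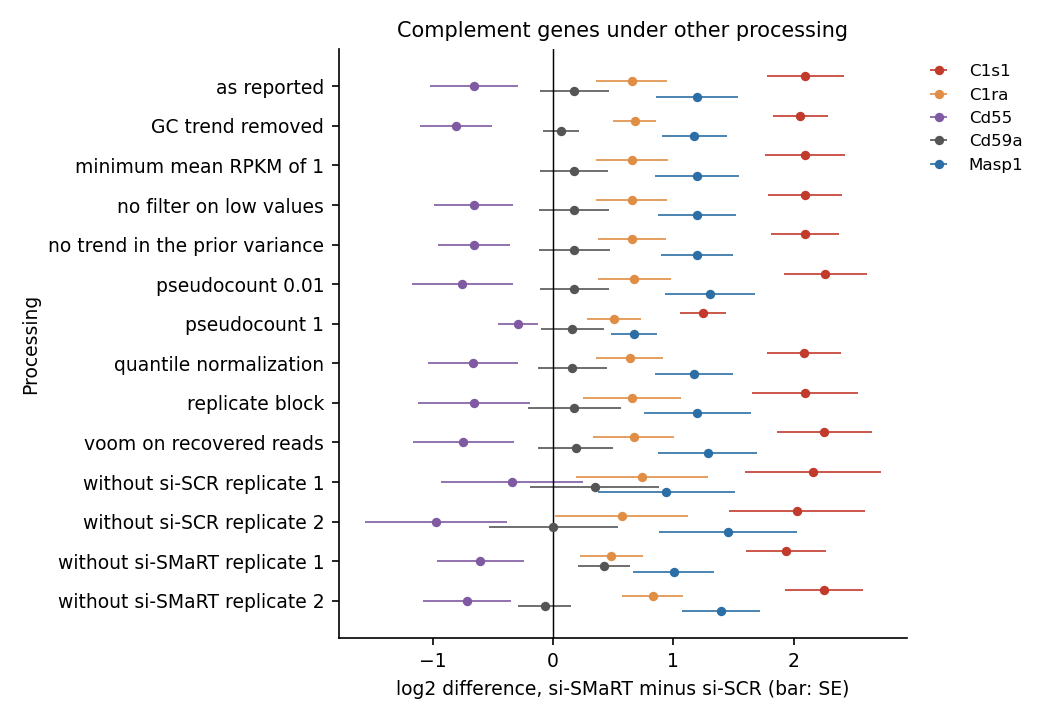
The x axis is the log2 difference of si-SMaRT minus si-SCR with its SE, for each of the 5 genes (colours) under each way of processing (rows), on log2(RPKM + pseudocount) or, for voom, log2 CPM. C1s1 stays between 1.25 and 2.26 and is to the right of the other genes in every row, and Cd59a lies around 0.

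Beyond these 8 genes, 54 further complement genes were looked up, of which 10 had a row and 8 were tested. None was past the threshold (0 of 8 in limma and 0 in voom on recovered reads), and 2 of 8 had an unadjusted p under 0.05, as had 1008 of 11086 tested genes (9.09%). Their median log2 difference was 0.34, against 0.02 for all tested genes. The number past the threshold was 2 without si-SMaRT 1 and 2 without si-SMaRT 2, where 26.2% and 8.49% of all tested genes were past it. Among the recognition molecules and proteases, 2 of 14 had a row, among alternative pathway genes and C2, C4 and C5 2 of 6, among regulators 2 of 16, and among receptors and C1q binding proteins 4 of 12. None of the 6 genes of the terminal components had a row, nor had C1qa, C1qb or C1qc, the genes of the recognition part of C1.

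Colec12, a membrane collectin, was at 25.3 and 25.0 RPKM in si-SCR and 38.7 and 43.3 RPKM in si-SMaRT, a log2 difference of 0.70 (SE 0.26, adjusted p in limma 0.343). Cfp encodes properdin, the stabiliser of the alternative pathway convertase, and went the other way, at 1.32 and 1.79 RPKM in si-SCR and 0.969 and 0.724 RPKM in si-SMaRT. Its log2 difference was -0.80 (SE 0.33, adjusted p in limma 0.440). The most abundant of the 8, Calr (calreticulin, which binds C1q among many other roles), was at 211 and 226 RPKM in si-SCR and 244 and 224 RPKM in si-SMaRT, so the groups overlapped. Thbd encodes thrombomodulin, a membrane protein best known as a cofactor of thrombin, and was at 0.658 and 1.18 RPKM in si-SCR and 1.47 and 1.41 RPKM in si-SMaRT. The groups did not overlap, and its log2 difference was 0.65 (SE 0.35, adjusted p in limma 0.606). It was 0.27 without si-SCR 1 and 1.02 without si-SCR 2. C1qbp, a mitochondrial protein that also binds C1q, was at 23.3 and 26.7 RPKM in si-SCR and 33.9 and 31.3 RPKM in si-SMaRT, a log2 difference of 0.38 (SE 0.26, adjusted p in limma 0.727).

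**Figure D4:**
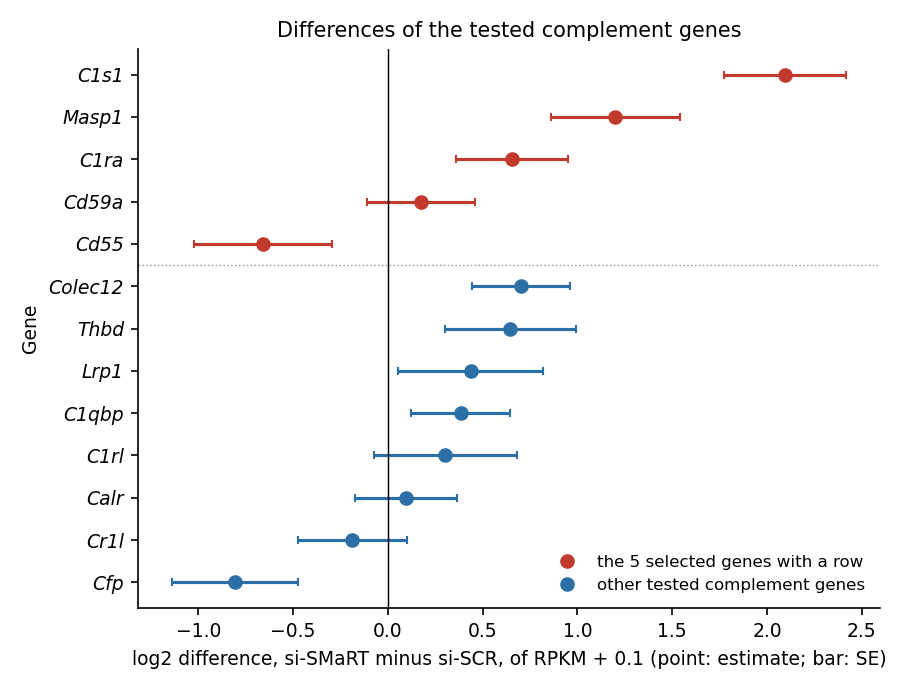
The x axis is the log2 difference of RPKM + 0.1, si-SMaRT minus si-SCR, and the rows are genes, with a point for the estimate and a bar for its SE (red, the 5 selected genes with a row; blue, the other 8 tested complement genes). C1s1 lies at 2.10, Colec12 is the highest blue point at 0.70 and Cfp the lowest at -0.80.

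C1s1 and C1ra sit in a cluster of C1r and C1s genes, so the genes around them were examined. The start of a gene is here its lower coordinate on either strand, and not its start site. Of 37 other genes annotated with a start within 300 kb of that of C1s1, 11 rows were in the table and tested. None was past the threshold in limma (0 of 11, and 0 in voom on recovered reads), 3 of 11 had an unadjusted p under 0.05 (9.09% of all tested genes had), and the 11 rows' median log2 difference was -0.18. Those 3 were Lpcat3, Spsb2 and Tpi1, all with lower values in si-SMaRT, and Lpcat3 and Spsb2 were named after their values were seen. Without si-SMaRT 1 the number past the threshold was 5, where 26.2% of all tested genes were past it. With the GC trend removed, which leaves out the joined rows, it was 1 (Lpcat3), against 4.79% of all genes. C1rl, the gene next to C1ra, is also among the other tested complement genes, so the sets share it. It was at 0.604 and 0.470 RPKM in si-SCR and 0.942 and 0.487 RPKM in si-SMaRT. Its log2 difference was 0.30 (SE 0.38), and the groups overlapped. Tpi1, a glycolytic enzyme and the most abundant neighbour, was at 607 and 511 RPKM in si-SCR and 392 and 266 RPKM in si-SMaRT (log2 difference -0.79, SE 0.29). Emg1, a ribosome assembly factor, had a log2 difference of -0.32 (SE 0.26), and the row that joins Phb2 (prohibitin) with Gm23547 had 0.13 (SE 0.27). No gene of the window lay between the values of C1ra and C1s1.

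**Figure D5:**
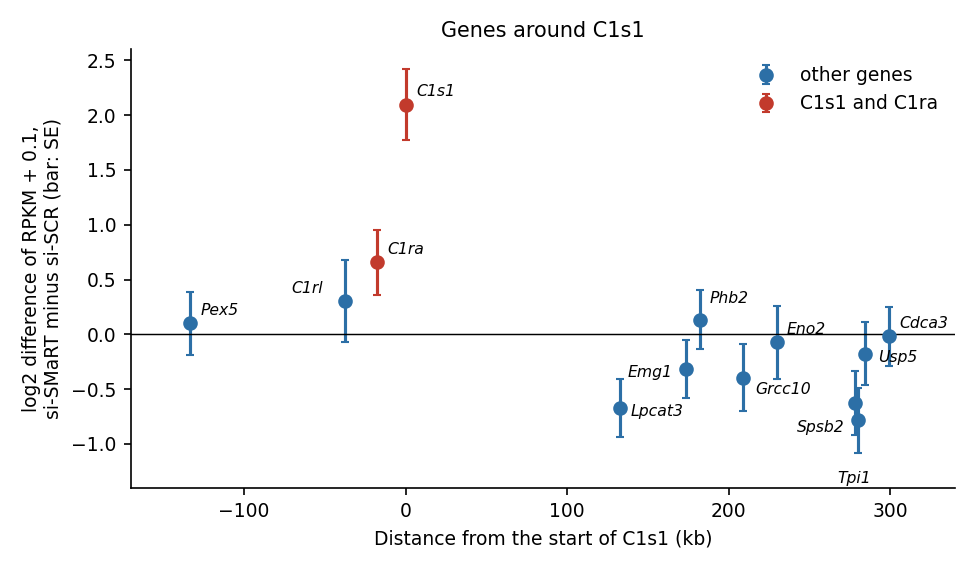
The x axis is the distance of a gene's start (its lower coordinate) from that of C1s1 in kb. The y axis is the log2 difference of RPKM + 0.1, si-SMaRT minus si-SCR, with bars for the SE. Red marks C1s1 and C1ra, and blue the 11 other rows, joined rows under their leading gene. C1s1 at 2.10 and C1ra at 0.66 are above all blue points, the highest of which is C1rl at 0.30.

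Complement genes are known to respond to interferon gamma, to cytokines of the IL-6 family and to IL-1 and TNF, and 21 genes of these routes were looked up. A row was found for 19, and none was past the threshold (0 of 19 in limma, and 0 in voom on recovered reads). The median log2 difference was 0.21 and 3 of 19 had an unadjusted p under 0.05 (9.09% of all tested genes had). These were Osmr, Lifr and Il1r1, and with the GC trend removed the same 3 were past the threshold (adjusted p in limma 0.0366, 0.0336 and 0.0288), as were 4.79% of all genes. The number was 7 without si-SMaRT 1 and 4 without si-SMaRT 2, where 26.2% and 8.49% of all tested genes were past it. Lifr, the receptor of leukemia inhibitory factor, was at 21.7 and 25.0 RPKM in si-SCR and 36.8 and 43.2 RPKM in si-SMaRT, a log2 difference of 0.77 (SE 0.26). Il1r1, the IL-1 receptor, was at 15.9 and 16.9 RPKM in si-SCR and 23.9 and 33.1 RPKM in si-SMaRT, a log2 difference of 0.78 (SE 0.27). Osmr, the oncostatin M receptor, which was named after its values were seen, was at 2.19 and 2.18 RPKM in si-SCR and 3.95 and 4.51 RPKM in si-SMaRT, a log2 difference of 0.92 (SE 0.29). Irf1, a transcription factor of the interferon response, was at 24.4 and 19.9 RPKM in si-SCR and 19.8 and 15.4 RPKM in si-SMaRT, a log2 difference of -0.33 (SE 0.27).

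Markers of fibroblasts and undifferentiated mesenchymal cells, and of further cell types, were read beside these levels. All samples came from 1 myoblast line, so a marker with a row does not show that another cell type was present. Fibroblasts and undifferentiated mesenchymal cells transcribe C1s1 and C1ra, and 7 of the 10 markers fixed for them had a row (Lum, Thy1 and Fap had none). Their summed level was 854 and 955 RPKM in si-SCR and 1518 and 1222 RPKM in si-SMaRT. Of the 7, 4 (Col1a2, Col3a1, Dcn and Vim) were higher in both si-SMaRT samples than in both si-SCR samples, as were 20.2% of all tested genes. The groups overlapped for Col1a1, Pdgfra and Pdgfrb, where si-SMaRT 2 was below an si-SCR sample. The rise of Col1a2 and Col3a1 was smaller in si-SMaRT 2 (139 and 312 RPKM) than in si-SMaRT 1 (234 and 481 RPKM). Dcn went the other way, at 148 against 102 RPKM. None of the 7 was past the threshold, where 0.505% of all tested genes were. With the GC trend removed 1 of 6 (Dcn) was, as were 4.79% of 10381 genes. The highest was Vim, at 366 and 406 RPKM in si-SCR and 571 and 568 RPKM in si-SMaRT. In bulk samples a different share of cells of a type and a different amount of RNA per cell cannot be told apart, and the part of these markers in the C1s1 difference was not tested. Of 11 macrophage and leukocyte markers only Cd68, Itgam and Cd14 had a row, with sums of 3.64 and 3.05 RPKM in si-SCR and 3.36 and 2.21 RPKM in si-SMaRT, while Ptprc, Adgre1 and Csf1r had none. None of the 5 endothelial and none of the 5 hepatocyte markers had a row.

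The 4-sample profile of C1s1 was compared with those of 11085 other tested genes by the root mean square distance of log2(RPKM + 0.1), each centred on its own mean. The nearest was Leprel1, a collagen prolyl hydroxylase, at a distance of 0.0819. Its levels were 0.212 and 0.228 RPKM in si-SCR and 1.40 and 1.05 RPKM in si-SMaRT. Bmp4, a secreted growth factor, was at a distance of 0.181, with 0.213 and 0.127 RPKM in si-SCR and 0.916 and 0.911 RPKM in si-SMaRT. Slc1a3, a glutamate transporter, was at a distance of 0.194, with 0.741 and 0.547 RPKM in si-SCR and 3.62 and 3.68 RPKM in si-SMaRT. Leprel1 and Bmp4 passed the minimum mean of 0.5 RPKM through their si-SMaRT samples. All 3 lie on other chromosomes than C1s1. As C1s1 was selected on these 4 samples, the likeness is a description.

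The pull-down asked which RNAs were recovered with lnc-SMaRT. Of 345 peaks in the lnc-SMaRT pull-down and 336 in the LacZ pull-down, 0 and 0 overlapped any of the 8 complement genes by 1 base on the same strand, and the same was found for all 61 complement genes with a position in the annotation. On genes of any kind lay 328 and 293 of these peaks. With 1 library each and low levels of C1s1 in the cells, the peaks carry no measure of how much C1s1 RNA could have been seen.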

How the data were processed

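The 5 groups of 7 samples were taken from the labels. The deposited RPKM values were made by the authors with Trimmomatic, Bowtie 2 (rRNA and tRNA reads discarded), TopHat2 on GRCm38 with Ensembl 77, htseq-count and edgeR (low CPM genes removed, TMM). The peak p-value is from the authors' Piranha calls (bin size 200 bases), with the input as covariate and, for lnc-SMaRT, also against LacZ. Which of both the deposited lnc-SMaRT list holds is not given in the sources used here. Because RPKM are not counts, limma 3.58.1 (R 4.3.3, lmFit, eBayes with trend) was run on log2(RPKM + 0.1). Genes needed a mean of at least 0.5 RPKM, p-values were adjusted by Benjamini-Hochberg over all tested genes, and the threshold was 0.05. Fold changes on this scale understate those of low genes.

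Reads were recovered from the RPKM steps for 11639 of 11642 rows. On simulated data 99.98% of 4000 genes were recovered, and those of C1ra and Masp1, whose length was not matched, are lower limits. On simulated data for this comparison (11083 genes), a dispersion of 0.02 gave calls for 76% of 2-fold and 100% of 4-fold changes, and one of 0.05 for 25% and 97%. Of the genes left unchanged, 18 and 6 were called. The simulated counts had the same dispersion for all genes and no GC trend between libraries. These shares are therefore not the power in the real samples, where such a trend was present. Positions and GC content came from GENCODE M21, where 10861 rows named 1 gene, and peaks were compared with bedtools 2.31.1.

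Named genes were the 8 complement genes, other complement genes past the threshold, the 3 most abundant and the 3 with the largest absolute difference, neighbours and inducers past the threshold and the 3 most abundant of each, the 3 genes nearest to C1s1 in profile, lnc-SMaRT, and the highest marker. The genes, lists and motifs were chosen with earlier results of these data known, and 1 gene of the lists is not reported here.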

Additional observations from a re-analysis of the deposited data

How the results depend on the processing

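The number of genes past the threshold was 56, and it was 497 with the GC trend removed, 37 after quantile normalization, 103 with voom on recovered reads, 96 with the replicate block and between 24 and 2908 when 1 sample was left out. Among the 5 complement genes the number was 1, 2 with the GC trend removed and between 0 and 3 with 1 sample left out. C1s1 was not past the threshold without si-SCR 1 or without si-SCR 2, and as a gene selected on these samples it gives no support in either case. With 1 sample left out, the log2 difference of Cd59a ran from -0.0701 (without si-SMaRT 2) to 0.42 and that of the joined row of Phb2 from -0.0532 (without si-SMaRT 1) to 0.32, each reversed once. The number past the threshold was 0 for other complement genes, or between 0 and 2 with 1 sample left out. It was 0 for neighbours, or 1 with the GC trend removed and between 0 and 5 with 1 sample left out, and 0 for inducers, or 3 with the GC trend removed and between 0 and 7 with 1 sample left out. Where 1 sample was left out, the lone sample was assumed to vary like the other group. The peak counts were 0 under each alternative. The cause of these changes was not tested.

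The replicate numbers are shared between the groups, and whether samples of the same number came from the same population is not given. The difference of replicate 1 minus 2 correlated at -0.362 across genes between si-SCR and si-SMaRT. The GC trends within the groups ran in opposite directions, so this correlation cannot decide whether the samples were paired. A crossed pairing, added after seeing the data, gave 487 genes, 2 of them among the 5. The replicate block changed no call among the 5 genes. Over the 5 genes and the alternatives, 57 values kept direction and side of the threshold, 2 lost and 4 gained it and 1 reversed.

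With 2 samples per group an exact permutation test cannot go below p = 0.333, and the C1s1 level in si-SCR rests on 23 reads per sample.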
